A study of Homo sapiens with 12 samples.

Results

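CD22, CD72, FCGR2B, PTPN6, INPP5D and CSK act in the inhibitory arm of B cell signalling, and the phosphatase PTPRC opposes CSK. The splicing of these 7 genes was measured by RNA sequencing in the B cell line MEC1. They were taken by name from a table of splicing events, with every event that had 10 or more reads in all 12 samples. That left 357 of their 403 events, beside 340966 such events in 11674 genes of the whole table. An event is an exon that can be skipped (115 of the 357), an intron that can be retained (101) or an alternative 3′ or 5′ splice site (90 and 51). Its level is the percentage of transcripts that include the exon, retain the intron or use the site.

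MEC1 is an established line derived from chronic lymphocytic leukemia. SF3B1, a core protein of the spliceosome that takes part in branch point recognition, was wild type (WT) or carried K700E, and cells received the SF3B-binding compound H3B-8800 at 75 nM, or its vehicle DMSO, for 6 h. Each of the 4 groups had 3 samples. WT replicates 1 and 2 were cultures without an edit, and WT replicate 3 was an edited clone with the base change c.2106G>A. The 3 K700E replicates were separate edited clones with c.2098A>G and c.2106G>A. The same clones and cultures were used in both treatments, so replicate numbers pair DMSO with H3B-8800 within a genotype, while a difference between genotypes cannot be told apart from a difference between clones and cultures.

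Signalling from the B cell antigen receptor is started by Src-family kinases. CD22, CD72 and FCGR2B (the Fc receptor for IgG, FcγRIIb) are surface proteins that recruit phosphatases through tyrosine motifs in their tails. PTPN6 (SHP-1) removes phosphate from tyrosines of signalling proteins, and INPP5D (SHIP-1) removes a phosphate from the membrane lipid that phosphoinositide 3-kinase makes. CSK is the kinase that phosphorylates the inhibitory tail tyrosine of Src-family kinases, and PTPRC (CD45) is the membrane phosphatase that removes that phosphate again.

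The libraries held 45840233 to 56676172 reads over annotated exon-exon junctions. The median tested event of the table was covered by 146 (lowest library) to 267 reads (highest). All 7 B cell markers used were present (MS4A1, CD79A, PAX5 and others, summed 3253 to 6792 RPM, reads over a gene's annotated exon-exon junctions scaled to 1000000 such reads per library). All 8 T and NK cell markers, CD3E among them, and all 6 myeloid markers with introns in the table, CD14 among them, had a mean under 1 RPM. Fibroblast and epithelial markers summed to 16.3 to 28.4 RPM. Of these, COL1A2, PDGFRB and EPCAM were under 1 RPM, and COL1A1, KRT8 and CDH1 were not. The K700E replicate 1 clone stood apart in both treatments: it had less CD22 and more CD72 and INPP5D than the other K700E clones.

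H3B-8800 lowered the inclusion of exons and raised the retention of introns in 6 of the 7 genes (all but CD72) in both genotypes. Of the 43 exons tested in the 7 genes, 22 were included less in WT and 21 in K700E, beside 39.6% and 38% of all exons. Of the 43, 0 were included more (0.532% and 0.46% of all exons were). Of 59 introns tested, 20 were retained more in WT and 21 in K700E, beside 32% and 31.6% of all introns. Of the 59, 0 were retained less (0.389% and 0.402% of all introns were). The largest change among tested events was at PTPN6 exon 11, which fell by 62.3 points in WT and 60.6 in K700E, and the largest rises were at CSK introns 12 and 13.

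A test was made for 130 of the 357 events, those with a mean level between 1% and 99%, with balanced reads at both ends of an intron, and not the reference site of an alternative splice site event. Another 160 were near 0% or 100%, and their largest difference was 2.03 points in WT and 1.64 in K700E. With limma, 45 of the 130 were called in WT (21 higher and 24 lower in H3B-8800) and 44 in K700E (21 higher and 23 lower). An event was called when its adjusted p (Benjamini-Hochberg, 120496 events of all genes) was under 0.05 and the group means were 10 points or more apart. The same rule called 31.4% of all events tested in WT and 30.7% in K700E, so the counts of these genes were near the background. By type, 39.6% of all exons were called lower in WT and 38% in K700E, and 32% of all introns were called higher in WT and 31.6% in K700E. Of the 23 alternative 3′ sites, 3 were called in WT, where the background was 9.33%, and 2 in K700E, where it was 12.1%. None of the 5 alternative 5′ sites was called, and 2 in WT and 1 in K700E had an unadjusted p under 0.05. Over all genes 2718 and 2473 of 8619 such sites did. There were 39 events called in both genotypes, 6 in WT alone and 5 in K700E alone. Those of WT were PTPRC exon 28, introns 5 and 16 and 2 sites of an alternative 3′ event at exon 6, and CD22 intron 10. The 2 PTPRC sites changed by equal and opposite amounts (-11.81 and 11.81 points in WT), so they are not 2 independent calls. Those of K700E were PTPN6 introns 10 and 11 and an alternative 3′ site of exon 3, PTPRC intron 18 and INPP5D intron 15. These 11 had a change in the same direction in both, of 7.19 to 12.9 points in WT and 7.52 to 11.4 in K700E, near the 10-point threshold.

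**Figure D1:**
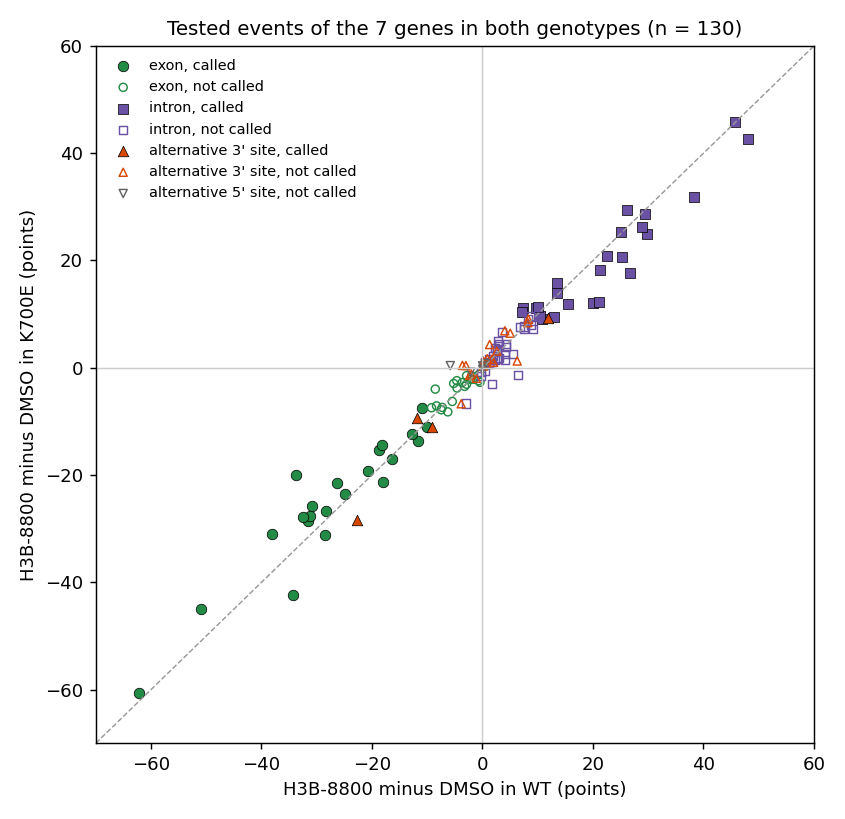
Difference of the mean level, H3B-8800 minus DMSO, in percentage points, in WT (horizontal) and K700E (vertical) for the 130 tested events of the 7 genes. Filled symbols were called in at least 1 genotype, and the dashed line marks equal differences; called exons lie at lower left and called introns at upper right, with PTPN6 exon 11 farthest down at -62.3 and -60.6 points.

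By gene, the number of events called in WT and in K700E was 11 and 10 of 29 for CD22, 4 and 4 of 7 for FCGR2B, 7 and 10 of 28 for PTPN6, 4 and 5 of 22 for INPP5D, 10 and 6 of 26 for PTPRC, and 9 and 9 of 17 for CSK. CD72 had 1 tested event and no call. Over all genes, 31.4% of tested events were called in WT and 30.7% in K700E. Events of a gene share reads and junctions, so they are not independent of each other.

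CD22, a sialic acid-binding receptor of B cells with inhibitory motifs in its tail and a target of antibody therapies, lost inclusion of 8 of its 10 tested exons in both genotypes. Of all exons, 39.6% were called lower in WT and 38% in K700E. Some of the 10 are only parts of longer annotated exons. Exon numbers here and below count along the GENCODE 29 transcript used as reference, CD22-201 for this gene, and coordinates are on hg38. The largest fall was at exon 12, a coding exon of 119 nt whose skipping shifts the reading frame and which is known from leukemic B cell precursors as a skipped exon. Its sequence is shown because the treated cells mostly left it out. It lies at chr19:35345602-35345720 on the plus strand, with the first base and the last 3 bases, next to the splice sites, in capitals.

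CD22 exon 12: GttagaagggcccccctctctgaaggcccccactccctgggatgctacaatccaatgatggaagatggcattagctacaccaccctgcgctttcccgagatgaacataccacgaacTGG

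Exon 12 of CD22 was included at 88.8%, 89.4% and 91.04% in WT DMSO replicates 1, 2 and 3 and 40.5%, 40.1% and 35.98% in WT H3B-8800. In K700E it was 91.6%, 90.95% and 87.9% in DMSO and 35.5%, 48.9% and 51% in H3B-8800. No H3B-8800 sample reached the range of the DMSO samples. The mean was 89.7% ± 1.18 with DMSO and 38.9% ± 2.5 with H3B-8800 in WT (limma adjusted p = 2.45e-07), and 90.2% ± 1.96 with DMSO and 45.1% ± 8.42 with H3B-8800 in K700E (adjusted p = 5.11e-07). K700E replicate 1 had the lowest treated level of that genotype.

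Exon 2 of CD22 (56 nt, chromosome 19, 35332019 to 35332074) holds the start codon in the reference transcript. It was included at 66.03%, 70.2% and 77.7% in WT DMSO replicates 1, 2 and 3 and 37.02%, 40.98% and 38.6% in WT H3B-8800. The K700E clones had 61.5%, 67.6% and 62.7% in DMSO and 27.5%, 40.3% and 40.6% in H3B-8800. It was thus already skipped in part of the transcripts without the compound, and H3B-8800 lowered it in all 6 treated samples below every DMSO sample, with means of 71.3% ± 5.93 with DMSO and 38.9% ± 1.99 with H3B-8800 in WT (limma adjusted p = 7.97e-05), and 63.9% ± 3.203 with DMSO and 36.1% ± 7.49 with H3B-8800 in K700E (adjusted p = 0.000338).

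Exons 5 and 6 of CD22, 267 and 264 nt, keep the reading frame when skipped and encode part of the extracellular immunoglobulin-like domains. Inclusion of exon 5 was 76.3% ± 3.45 with DMSO and 44.7% ± 2.84 with H3B-8800 in WT (limma adjusted p = 1.55e-05), and 76.8% ± 2.11 with DMSO and 48.2% ± 7.21 with H3B-8800 in K700E (adjusted p = 3.48e-05). For exon 6 it was 77.6% ± 3.11 with DMSO and 46.3% ± 1.57 with H3B-8800 in WT (limma adjusted p = 1.03e-05), and 76.8% ± 1.75 with DMSO and 49.2% ± 7.19 with H3B-8800 in K700E (adjusted p = 3.03e-05). The groups did not overlap at either exon, and in K700E replicate 1 was again the lowest treated sample, at 39.9% and 40.9%. The last 78 nt of exon 8 were also counted as an exon, which GENCODE 29 does not list, and its inclusion was 98.3% ± 0.574 with DMSO and 69.8% ± 4.33 with H3B-8800 in WT, and 97.5% ± 1.29 with DMSO and 66.3% ± 6.64 with H3B-8800 in K700E. Retention rose at introns 7 and 8, which lie before and after exon 8. For intron 7 (204 nt) it was 0.76% ± 0.157 with DMSO and 22.1% ± 5.01 with H3B-8800 in WT, and 0.63% ± 0.12 with DMSO and 18.9% ± 3.57 with H3B-8800 in K700E. Introns 1 and 2 of CD22 were retained at 23.4% and 21.02% on average in WT DMSO, and were not called in either genotype (25.2% and 18.1% in WT H3B-8800, 20.2% and 13.3% in K700E H3B-8800).

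FCGR2B, the inhibitory receptor for IgG that recruits INPP5D, shifted between its known forms. Exon 6, a 57-nt exon of the cytoplasmic tail, is included in form b1, which stays at the cell surface, and left out of form b2, which is taken up into the cell. Its inclusion fell in both genotypes, and so did that of exon 2 (21 nt) and the use of the upstream of 2 splice sites, 3 nt apart, at the start of exon 3. The 3 sequences are shown because they are short, keep the frame and carry these changes. They lie on the plus strand at chr1:161675257-161675313, chr1:161670252-161670272 and chr1:161671392-161671421. Capitals mark the first base and the last 3 bases of exons 6 and 2, and in exon 3 the 3 bases that are lost when the downstream site is used.

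FCGR2B exon 6: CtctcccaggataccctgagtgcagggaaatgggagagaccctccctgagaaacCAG

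FCGR2B exon 2: CtcctgttgctgggacacCTG

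FCGR2B exon 3 start: CAGctcccccaaaggctgtgctgaaactcg

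Exon 6 of FCGR2B was included at 64.1%, 66.5% and 75.6% in WT DMSO replicates 1, 2 and 3 and 29.9%, 36.1% and 47.7% in WT H3B-8800. Among the K700E clones it was 77.8%, 57.96% and 64.5% in DMSO and 54.9%, 31.7% and 36.5% in H3B-8800. H3B-8800 lowered it in each of the 6 pairs of the same clone or culture, and the spread between clones was wide: K700E replicate 1 was highest in both treatments. The groups of a genotype did not overlap. The mean was 68.7% ± 6.02 with DMSO and 37.9% ± 9.01 with H3B-8800 in WT (limma adjusted p = 0.00313), and 66.8% ± 10.1 with DMSO and 41% ± 12.2 with H3B-8800 in K700E (adjusted p = 0.00902).

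Exon 2 of FCGR2B was included at 99.3%, 98.99% and 98.6% in WT DMSO replicates 1, 2 and 3 and 69.8%, 59.7% and 64.5% in WT H3B-8800. In the mutant cells it was at 98.98%, 99.3% and 99.3% in DMSO and 54.2%, 66.4% and 49.8% in H3B-8800. The mean was 98.97% ± 0.346 with DMSO and 64.7% ± 5.04 with H3B-8800 in WT (limma adjusted p = 6.15e-08), and 99.2% ± 0.159 with DMSO and 56.8% ± 8.61 with H3B-8800 in K700E (adjusted p = 3.56e-08). The upstream 3′ site of exon 3 was used at 86.99%, 89% and 89.5% in WT DMSO and 70.9%, 63.9% and 62.8% in WT H3B-8800, and at 90.2%, 89.2% and 92.3% in K700E DMSO and 59.3%, 65.9% and 61.3% in K700E H3B-8800 (adjusted p = 5.76e-05 and 8.58e-06). Every treated sample lay below every DMSO sample at both. The 42 nt around the inclusion junctions of exons 2 to 5 are identical in transcripts of FCGR2C, a near-identical neighbour gene, so these levels are uncertain as to which gene they come from. Exon 6 had no such copy.

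Intron 7 of FCGR2B (110 nt, chromosome 1, 161677366 to 161677475), within the coding part, was retained at 1.63%, 2.13% and 3.45% in WT DMSO and 19.7%, 28% and 27.2% in WT H3B-8800. In K700E retention was 3.07% ± 0.521 with DMSO and 23.9% ± 4.78 with H3B-8800 (adjusted p = 6.44e-06; in WT 1.73e-06). All 6 treated samples lay above all 6 DMSO samples.

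CD72, a lectin-like receptor whose tail binds PTPN6, was too low for its splicing to be followed. It had 28 to 438 spliced reads per sample, and 2 of its 36 events reached 10 reads in all samples. Exon 8 was included at 100% in all 12 samples. Intron 9, which follows the coding part, was retained at 3.7%, 6.12% and 4.55% in WT DMSO and 8.1%, 16.7% and 9.09% in WT H3B-8800, and at 6.25%, 7.69% and 4.17% and 3.61%, 5.26% and 5.26% in K700E, on 10 to 119 reads. The difference in WT did not reach the 10 points of a call (adjusted p = 0.0445), and at the median of 29 reads a level of 50% has a 95% Wilson interval of ± 17.1 points, against ± 2.22 for PTPN6.

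PTPN6, the tyrosine phosphatase SHP-1, had the exon with the largest fall among the 7 genes. Exon 11 (155 nt) encodes part of the phosphatase domain, and its skipping shifts the reading frame. The sequence lies at chr12:6957919-6958073 on the plus strand, with the first base and last 3 bases in capitals.

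PTPN6 exon 11: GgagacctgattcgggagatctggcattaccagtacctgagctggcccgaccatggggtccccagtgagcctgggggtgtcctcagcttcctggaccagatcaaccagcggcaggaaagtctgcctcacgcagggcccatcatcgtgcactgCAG

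Exon 11 of PTPN6 was included at 96.4%, 97.3% and 97.9% in WT DMSO replicates 1, 2 and 3 and 37.02%, 33.3% and 34.6% in WT H3B-8800. The corresponding K700E levels were 97.9%, 98.1% and 97.4% in DMSO and 39.5%, 36.3% and 35.9% in H3B-8800. The mean was 97.2% ± 0.742 with DMSO and 34.96% ± 1.89 with H3B-8800 in WT (limma adjusted p = 3.17e-09), and 97.8% ± 0.337 with DMSO and 37.2% ± 1.995 with H3B-8800 in K700E (adjusted p = 3.31e-09). Its fall was larger than that of 97.7% of all tested exons in WT and 98% in K700E. Its read number per sample was 1504 to 4996, and K700E replicate 1 did not stand apart.

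Exon 5 of PTPN6 (117 nt, in frame) fell less: its mean was 99.3% ± 0.157 with DMSO and 81.3% ± 3.33 with H3B-8800 in WT (limma adjusted p = 3.72e-08), and 98.9% ± 0.338 with DMSO and 77.6% ± 3.93 with H3B-8800 in K700E (adjusted p = 7.15e-08). Exons 10 and 14 fell by 10.1 and 12.7 points in WT, and in K700E exon 10 fell by 11.02 and exon 14 fell by 12.3. Retention rose at the 3′ end of the gene: for intron 15 (180 nt, after the coding part) it was 2.81% ± 0.282 with DMSO and 28.9% ± 2.16 with H3B-8800 in WT (limma adjusted p = 1.73e-08), and 2.87% ± 0.323 with DMSO and 32.4% ± 1.53 with H3B-8800 in K700E (adjusted p = 1.52e-08). An intron of another annotated splice form just before it (370 nt) had levels of 2.96% ± 0.722 with DMSO and 32.5% ± 2.301 with H3B-8800 in WT, and 3.04% ± 0.426 with DMSO and 31.7% ± 3.72 with H3B-8800 in K700E. Retention of intron 6 (174 nt) was 0.493% ± 0.232 with DMSO and 14% ± 0.642 with H3B-8800 in WT, and 0.72% ± 0.1997 with DMSO and 16.6% ± 3.301 with H3B-8800 in K700E, while its neighbour intron 7 (385 nt) had group means of at most 2.01%.

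In H3B-8800, intron 2 of PTPN6 had the highest retention among introns of the reference transcripts of the 7 genes, and it was not tested because reads at its 2 ends were unbalanced in 8 of 12 samples. It was retained at 5.01%, 5.96% and 7.08% in WT DMSO replicates 1, 2 and 3 and 59.1%, 65.6% and 68.1% in WT H3B-8800. In K700E it was 5.61%, 4.73% and 5.3% in DMSO and 57.2%, 62.5% and 61.5% in H3B-8800. The sequence of its 251 nt is shown for comparison with the CSK introns below, at chr12:6951732-6951982 on the plus strand, with the first 2 and last 2 bases in capitals.

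PTPN6 intron 2: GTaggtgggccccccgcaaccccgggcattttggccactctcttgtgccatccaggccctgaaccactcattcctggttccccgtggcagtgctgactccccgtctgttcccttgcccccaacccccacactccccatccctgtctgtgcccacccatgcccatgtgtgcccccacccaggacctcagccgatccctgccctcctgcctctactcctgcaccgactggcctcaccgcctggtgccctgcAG

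INPP5D, the lipid phosphatase SHIP-1, had 2 of 5 tested exons called lower in both genotypes, beside 39.6% of all exons in WT and 38% in K700E. Of its 12 tested introns, 2 were called higher in WT and 3 in K700E, beside 32% and 31.6% of all introns. Of its 22 tested events, 18 in WT and 19 in K700E had an unadjusted p under 0.05. Most tested events of all genes did too, 86389 of 120496 in WT and 85360 in K700E. Exon 8 is 72 nt long and in frame, and was close to constant without the compound. It lies at chr2:233146367-233146438 on the plus strand, with the first base and last 3 bases in capitals.

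INPP5D exon 8: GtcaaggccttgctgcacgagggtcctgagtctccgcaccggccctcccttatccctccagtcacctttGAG

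Exon 8 of INPP5D was included at 99.1%, 99.8% and 99.4% in WT DMSO replicates 1, 2 and 3 and 63.04%, 59.3% and 61.5% in WT H3B-8800. The K700E clones had 99.5%, 99.6% and 99.2% in DMSO and 68.03%, 72.2% and 64.99% in H3B-8800. The mean was 99.4% ± 0.381 with DMSO and 61.3% ± 1.89 with H3B-8800 in WT (limma adjusted p = 9.72e-08), and 99.4% ± 0.204 with DMSO and 68.4% ± 3.62 with H3B-8800 in K700E (adjusted p = 2.1e-07). The highest treated sample (K700E replicate 2) lay far below the lowest DMSO sample. Inclusion of exon 25 (282 nt, in frame) was 98.9% ± 0.1002 with DMSO and 80.8% ± 2.09 with H3B-8800 in WT (limma adjusted p = 1.08e-07), and 99.6% ± 0.14 with DMSO and 85.1% ± 4.12 with H3B-8800 in K700E (adjusted p = 4.35e-08).

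The intron after exon 25 of INPP5D is long, 5749 nt, and its retention was 1.96% ± 0.635 with DMSO and 27.1% ± 1.78 with H3B-8800 in WT (limma adjusted p = 6.24e-07), and 1.803% ± 0.764 with DMSO and 27.1% ± 4.38 with H3B-8800 in K700E (adjusted p = 5.53e-07). Retention of the next, intron 26 (1988 nt), was 4.91% ± 1.21 with DMSO and 20.4% ± 3.19 with H3B-8800 in WT (limma adjusted p = 3.6e-05), and 4.02% ± 0.882 with DMSO and 15.9% ± 2.46 with H3B-8800 in K700E (adjusted p = 6.81e-05). Intron 15 (331 nt) lay at the threshold, with a rise of 9.99 points in WT, which was not called, and 11.4 in K700E, which was. Of the 26 INPP5D introns, 12 had a mean level under 1% over the 12 samples and were not tested.

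PTPRC (CD45) has 3 variable extracellular exons, 4, 5 and 6, known as RA, RB and RC, and B cells mostly make the long form with all of them. Of these 3, exon 4 (198 nt, RA) was called lower in H3B-8800, and so were exons 11 and 17, which are not among the variable ones. Exon 17 is 35 nt long and shifts the frame. Exons 4 and 17 are shown for that reason, at chr1:198696712-198696909 and chr1:198729137-198729171 on the plus strand, with the first base and last 3 bases in capitals.

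PTPRC exon 4: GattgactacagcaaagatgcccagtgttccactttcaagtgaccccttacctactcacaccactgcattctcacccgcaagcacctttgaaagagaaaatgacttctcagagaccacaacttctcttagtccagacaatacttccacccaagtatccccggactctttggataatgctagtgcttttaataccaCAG

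PTPRC exon 17: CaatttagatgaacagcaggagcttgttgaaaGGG

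Exon 4 of PTPRC was included at 89.9%, 89.7% and 87.9% in WT DMSO replicates 1, 2 and 3 and 60.7%, 62.5% and 65.4% in WT H3B-8800. Among the K700E clones it was 87.1%, 89.5% and 78.5% in DMSO and 54.1%, 72.6% and 64.01% in H3B-8800. The mean was 89.2% ± 1.12 with DMSO and 62.9% ± 2.39 with H3B-8800 in WT (limma adjusted p = 0.000146), and 85% ± 5.78 with DMSO and 63.6% ± 9.27 with H3B-8800 in K700E (adjusted p = 0.00117), without overlap of treated and DMSO samples. Exon 5 was not tested because it was nearly always included: its lowest sample had 97.3% (WT H3B-8800 replicate 1), and 8 of 12 samples had 100%. Exon 6 was at 99.5%, 99.8% and 99.8% in WT DMSO and 98.3%, 100% and 99.4% in WT H3B-8800. In K700E it was at 98.3%, 97.9% and 93.3% in DMSO and 93.99%, 96.7% and 90.8% in H3B-8800, which was not called in either genotype (adjusted p = 0.322 and 0.275). The use of an alternative 3′ site at exon 6 changed by 11.81 points in WT, which was called, and by 9.273 in K700E, which was not.

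Exon 17 of PTPRC was included at 100%, 100% and 100% in WT DMSO replicates 1, 2 and 3 and 76.3%, 71.97% and 66.6% in WT H3B-8800. In the mutant cells it was at 99.8%, 99.8% and 100% in DMSO and 71.1%, 74.4% and 73.9% in H3B-8800. The mean was 100% ± 0 with DMSO and 71.6% ± 4.82 with H3B-8800 in WT (limma adjusted p = 1.85e-08), and 99.9% ± 0.117 with DMSO and 73.1% ± 1.79 with H3B-8800 in K700E (adjusted p = 6.18e-08). Inclusion of exon 11 (138 nt, in frame) was 93.7% ± 1.52 with DMSO and 59.9% ± 4.16 with H3B-8800 in WT (limma adjusted p = 1.77e-06), and 93.5% ± 1.92 with DMSO and 73.5% ± 3.37 with H3B-8800 in K700E (adjusted p = 2.62e-05). Its difference between the genotypes, 13.7 points, had an unadjusted p of 0.0644 and an adjusted p of 0.728.

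Among PTPRC introns, the first (88 nt, before the coding part) was retained at 0.81%, 1.27% and 0.89% in WT DMSO and 19.6%, 26.7% and 16.8% in WT H3B-8800, and at 1.25%, 0.95% and 0.68% and 18.9%, 11% and 9.35% in K700E. Intron 17, after exon 17, was retained at 0.63%, 1.67% and 2.82% in WT DMSO and 13.9%, 27.9% and 26.6% in WT H3B-8800, and at 3.51%, 2.72% and 3.85% and 23.5%, 12.3% and 11.2% in K700E. Both rises were called in K700E (12.1 and 12.3 points), but were 9.36 and 8.45 points and not called without K700E replicate 1 in both treatments. Intron 2 of PTPRC, the longest at 53005 nt, was retained at 0.36% or less on average in every group.

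**Figure D2:**
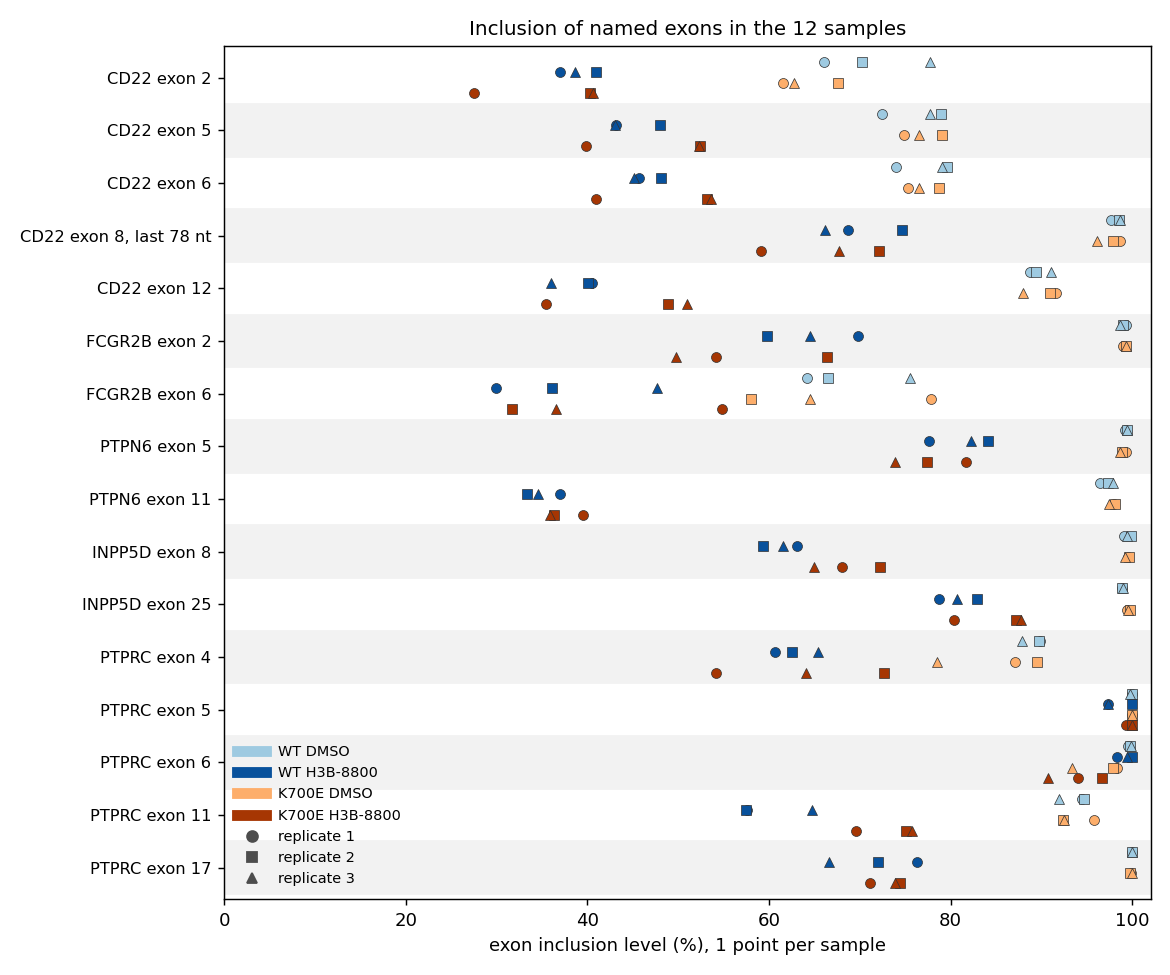
Inclusion level in percent (horizontal) of 16 named exons in the 12 samples, with 1 point per sample, colours for groups and symbols for replicates. In most rows the treated samples (dark) lie left of the DMSO samples (pale) in both genotypes, while PTPRC exons 5 and 6 stay above 90%.

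CSK, the kinase that holds Src-family kinases inactive, had the largest intron changes among the tested introns of the 7 genes. Of 10 introns tested, 7 were retained more in both genotypes, and the 3 others (introns 7, 10 and 14) stayed under 10 points of change. Of all introns, 32% were called higher in WT and 31.6% in K700E. Of all introns up to 500 nt, as 9 of these 10 are, the shares were 45.7% and 45.1%.

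Intron 12 of CSK (99 nt, chromosome 15, 74801596 to 74801694) was retained at 1.83%, 2.12% and 1.82% in WT DMSO and 50.6%, 48.8% and 50.7% in WT H3B-8800, and at 1.5%, 1.3% and 2.18% and 44.1%, 43% and 46.03% in K700E. The mean was 1.92% ± 0.1704 with DMSO and 50% ± 1.06 with H3B-8800 in WT (limma adjusted p = 3.71e-09), and 1.66% ± 0.461 with DMSO and 44.4% ± 1.54 with H3B-8800 in K700E (adjusted p = 5.08e-09). Intron 13 (106 nt) was retained at 0.81%, 1.25% and 1.38% in WT DMSO and 47.5%, 46.5% and 46.6% in WT H3B-8800, and at 1.24%, 1.28% and 1.7% and 47.6%, 46.9% and 47.01% in K700E (adjusted p = 3.56e-09 and 5.58e-09). No DMSO sample passed 2.18% at these introns, and the lowest treated sample was K700E replicate 2 at intron 12.

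Retention of intron 5 (97 nt) was 1.34% ± 0.103 with DMSO and 39.7% ± 2.56 with H3B-8800 in WT (limma adjusted p = 4.33e-08), and 1.15% ± 0.506 with DMSO and 32.9% ± 3.24 with H3B-8800 in K700E (adjusted p = 5.85e-08). Introns 4, 8, 9 and 11 of CSK reached 29.6%, 31.5%, 30.9% and 25.97% in WT H3B-8800 and 20.1%, 26.7%, 28.2% and 21.1% in K700E H3B-8800, from at most 2.93% in DMSO. Intron 10 (89 nt), between introns 9 and 11, was the exception. It was retained at 0.96%, 0.65% and 0.76% in WT DMSO and 2.08%, 1.75% and 2.05% in WT H3B-8800, and at 0.78%, 0.52% and 0.62% and 1.18%, 1.99% and 1.43% in K700E. Its rise was past the threshold on the logit scale (adjusted p = 0.000552 and 0.000969) and far below the 10 points of a call.

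The sequences of CSK introns 5, 9, 10 and 13 are shown to set the intron that stayed spliced beside 3 short introns that did not. All are on the plus strand of chromosome 15, with the first 2 and last 2 bases in capitals: intron 5 at chr15:74798729-74798825, intron 9 at chr15:74800747-74800822, intron 10 at chr15:74800923-74801011 and intron 13 at chr15:74801891-74801996.

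CSK intron 5: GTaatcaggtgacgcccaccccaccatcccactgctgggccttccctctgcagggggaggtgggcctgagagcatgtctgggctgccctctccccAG

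CSK intron 9: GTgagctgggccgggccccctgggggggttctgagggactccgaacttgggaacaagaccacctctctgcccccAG

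CSK intron 10: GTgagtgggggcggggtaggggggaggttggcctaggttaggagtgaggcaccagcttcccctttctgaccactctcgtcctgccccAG

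CSK intron 13: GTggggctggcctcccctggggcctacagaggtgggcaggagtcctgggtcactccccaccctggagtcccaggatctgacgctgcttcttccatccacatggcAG

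All 4 begin with GT and end with AG. Of the 20 bases before the final AG, 75% were pyrimidines in intron 10, against 75%, 70% and 70% in introns 5, 9 and 13. GC content was 65.2% in intron 10 and 67.0%, 68.4% and 66.0% in the others, and the 4 are 76 to 106 nt long. None of these 3 measures set intron 10 apart. They describe 4 sequences, and the branch points were not mapped.

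The skipping of 2 CSK exons rose as well: inclusion of exon 12 (74 nt, before intron 12) was 99.1% ± 0.0404 with DMSO and 80.4% ± 1.97 with H3B-8800 in WT (limma adjusted p = 4.77e-07), and 99.5% ± 0.311 with DMSO and 84.2% ± 2.93 with H3B-8800 in K700E (adjusted p = 2.64e-07). Exon 6 (113 nt) fell by 11.7 points in WT and 13.6 in K700E. Intron 12 retention and exon 12 skipping share a junction.

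**Figure D3:**
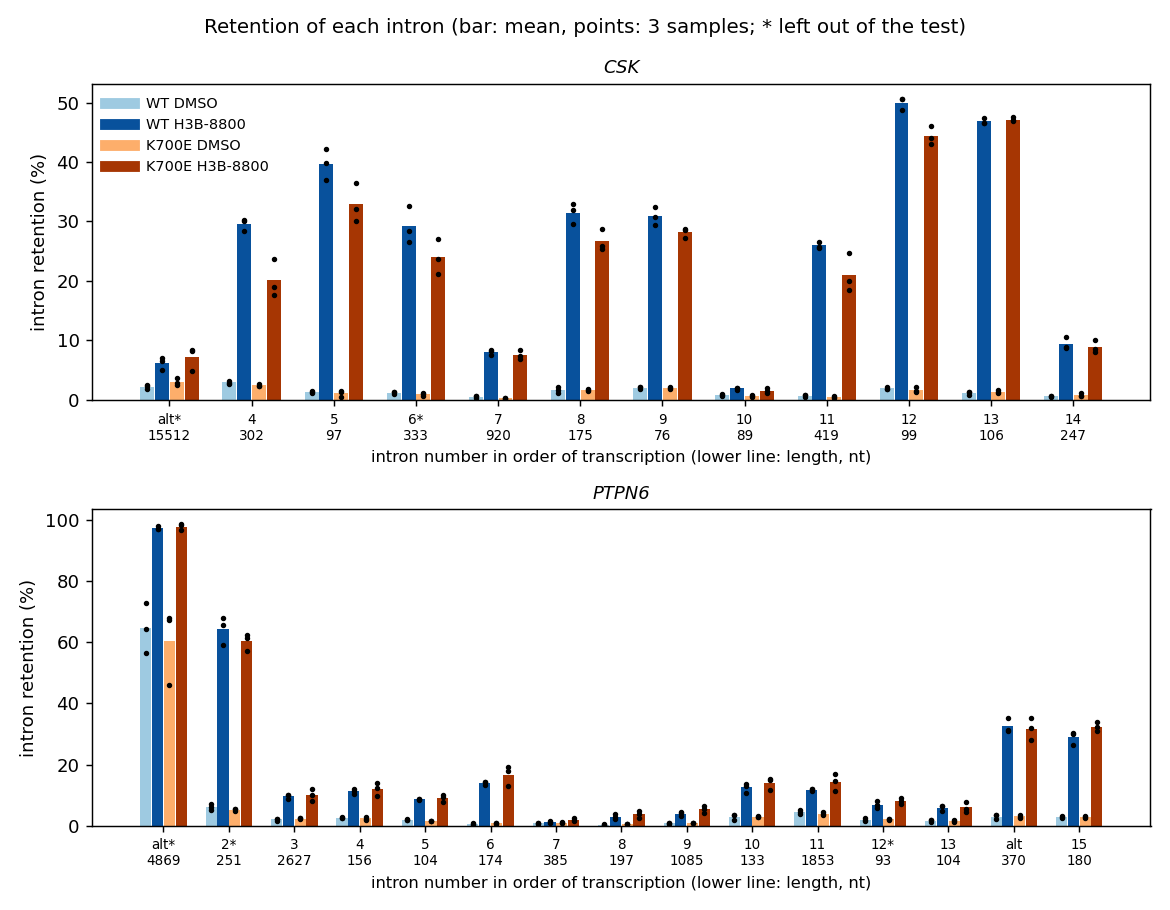
Mean intron retention in percent (vertical; bars, with the 3 samples as points) for the introns of CSK (top) and PTPN6 (bottom) in order of transcription, with intron number and length in nt below. Alt marks an intron outside the reference transcript and an asterisk an intron left out of the test. In CSK the treated bars are high at 7 tested introns and at intron 6 and low at intron 10. In PTPN6 they are high at intron 2 and at the last 2, and the first intron, of another transcript, is high in all groups.

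Short introns were called more often than long ones, in these genes as in the whole table. Of 31 tested introns up to 500 nt in the 7 genes, 15 were called higher in WT and 16 in K700E, against 5 of 28 longer ones in each. Over all genes the shares in WT were 45.7% of 16929 introns up to 500 nt and 24.8% of 32375 longer ones. In K700E they were 45.1% and 24.5%. CSK held 9 of the 31 short introns, with 7 of the 15 calls in WT and 7 of the 16 in K700E. Without CSK, 8 of 22 short and 5 of 27 longer introns were called in WT, and 9 and 5 in K700E. Of the 22 exons called lower in WT, 12 have a length that is a multiple of 3, of 19 such exons tested, and 10 do not, of 24 tested. Over all genes 39.4% of in-frame and 39.7% of other exons were called lower in WT. These counts are given as a description.

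Spliced reads fell in H3B-8800 for PTPRC, CSK and PTPN6 in both genotypes and for INPP5D in WT, by 0.73 to 1.23 on the log2 scale. Those calls are from the fit without pairing, and the fit with clones and cultures as blocks is given below. These reads measure spliced transcripts, not protein, and in a bulk sample fewer cells and less RNA per cell cannot be told apart. A junction that skips an exon is counted only where it is an annotated intron, so exon skipping can lower the sum too. In FCGR2B it can also add to it: 1 of its 4 counted introns (chromosome 1, 161663354 to 161671391) spans exon 2 and is the junction that skips it.

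Per annotated intron, a rough way to compare genes, the order in WT DMSO was PTPN6 (45.2 RPM ± 0.491), CSK (33.4 ± 2.52), CD22 (26.4 ± 3.30), INPP5D (13.8 ± 1.81), PTPRC (9.71 ± 0.994), FCGR2B (4.25 ± 1.07) and CD72 (0.312 ± 0.058), SD with n = 3. The counted introns differ in kind between genes. The 4 of FCGR2B include the junction that skips exon 2, and those of PTPN6 include introns of other transcripts. No 2 neighbours in this order overlapped in WT DMSO. In WT H3B-8800 the order was the same, with CSK and CD22 overlapping. In K700E DMSO, CD22 and INPP5D overlapped, and so did INPP5D and PTPRC. In K700E H3B-8800 the 4 highest genes, PTPN6, CSK, CD22 and INPP5D, each overlapped the next.

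PTPRC had 277, 316 and 339 RPM in WT DMSO and 120, 130 and 147 in WT H3B-8800. In K700E it had 447, 326 and 314 RPM in DMSO and 188, 173 and 159 in H3B-8800. No treated sample reached any DMSO sample of its genotype. The log2 change was -1.23 ± 0.14 (adjusted p = 2.18e-05) in WT and -1.05 ± 0.14 (adjusted p = 0.0001) in K700E, limma, ± SE. CSK had 366, 419 and 418 RPM in WT DMSO and 190, 234 and 214 in WT H3B-8800. In K700E it had 331, 388 and 352 RPM in DMSO and 192, 240 and 200 in H3B-8800. The groups of each genotype did not overlap. The log2 change was -0.92 ± 0.11 (adjusted p = 3.11e-05) in WT and -0.77 ± 0.11 (adjusted p = 0.000162) in K700E, limma, ± SE.

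PTPN6 had 673, 676 and 687 RPM in WT DMSO and 344, 415 and 406 in WT H3B-8800. In K700E it had 613, 614 and 500 RPM in DMSO and 385, 329 and 291 in H3B-8800. The highest treated sample had 415.2 RPM and the lowest DMSO sample 499.5. The log2 change was -0.81 ± 0.12 (adjusted p = 0.00012) in WT and -0.78 ± 0.12 (adjusted p = 0.000212) in K700E, limma, ± SE. INPP5D had 318, 347 and 410 RPM in WT DMSO and 186, 219 and 244 in WT H3B-8800, a log2 change of -0.73 ± 0.23 (adjusted p = 0.0174), without overlap. In K700E it had 525, 326 and 332 RPM in DMSO and 402, 228 and 260 in H3B-8800, where replicate 1 was highest in both treatments, and the change was -0.42 ± 0.23 (adjusted p = 0.147).

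In the fit without pairing of clones or cultures, the 3 receptors moved less clearly. CD22 had 287, 302 and 362 RPM in WT DMSO and 209, 200 and 225 in WT H3B-8800, and 155, 282 and 217 and 100, 237 and 208 in K700E. FCGR2B had 14.9, 14.2 and 21.9 RPM in WT DMSO and 9.25, 8.78 and 11.6 in WT H3B-8800, and 16.1, 9.37 and 7.15 and 12.2, 8.24 and 6.604 in K700E. CD72 had 2.999, 2.21 and 3.201 RPM in WT DMSO and 1.51, 0.902 and 1.799 in WT H3B-8800, and 8.06, 1.63 and 1.44 and 4.298, 0.909 and 0.569 in K700E. In WT the treated samples of all 3 lay below the DMSO samples, and in K700E the groups overlapped, with K700E replicate 1 lowest for CD22 and highest for FCGR2B and CD72. The log2 changes in WT were -0.58 ± 0.29 (adjusted p = 0.108) for CD22, -0.77 ± 0.31 (adjusted p = 0.0511) for FCGR2B and -1.03 ± 0.76 (adjusted p = 0.266) for CD72, and none was called. FCGR2B in WT was called with the median over its introns in place of their sum (-0.98, adjusted p = 0.022) and with weights from read numbers (-0.78, adjusted p = 0.0433). In K700E the log2 changes were -0.31 ± 0.29 (adjusted p = 0.395) for CD22, -0.23 ± 0.31 (adjusted p = 0.558) for FCGR2B and -1.02 ± 0.76 (adjusted p = 0.289) for CD72, again with none called. With the median over introns FCGR2B in K700E changed by -0.43 (adjusted p = 0.291). Without K700E replicate 1 in both treatments, the K700E changes were -0.15 ± 0.14 (adjusted p = 0.398) for CD22, -0.15 ± 0.24 (adjusted p = 0.635) for FCGR2B and -1.08 ± 0.37 (adjusted p = 0.0356) for CD72.

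**Figure D4:**
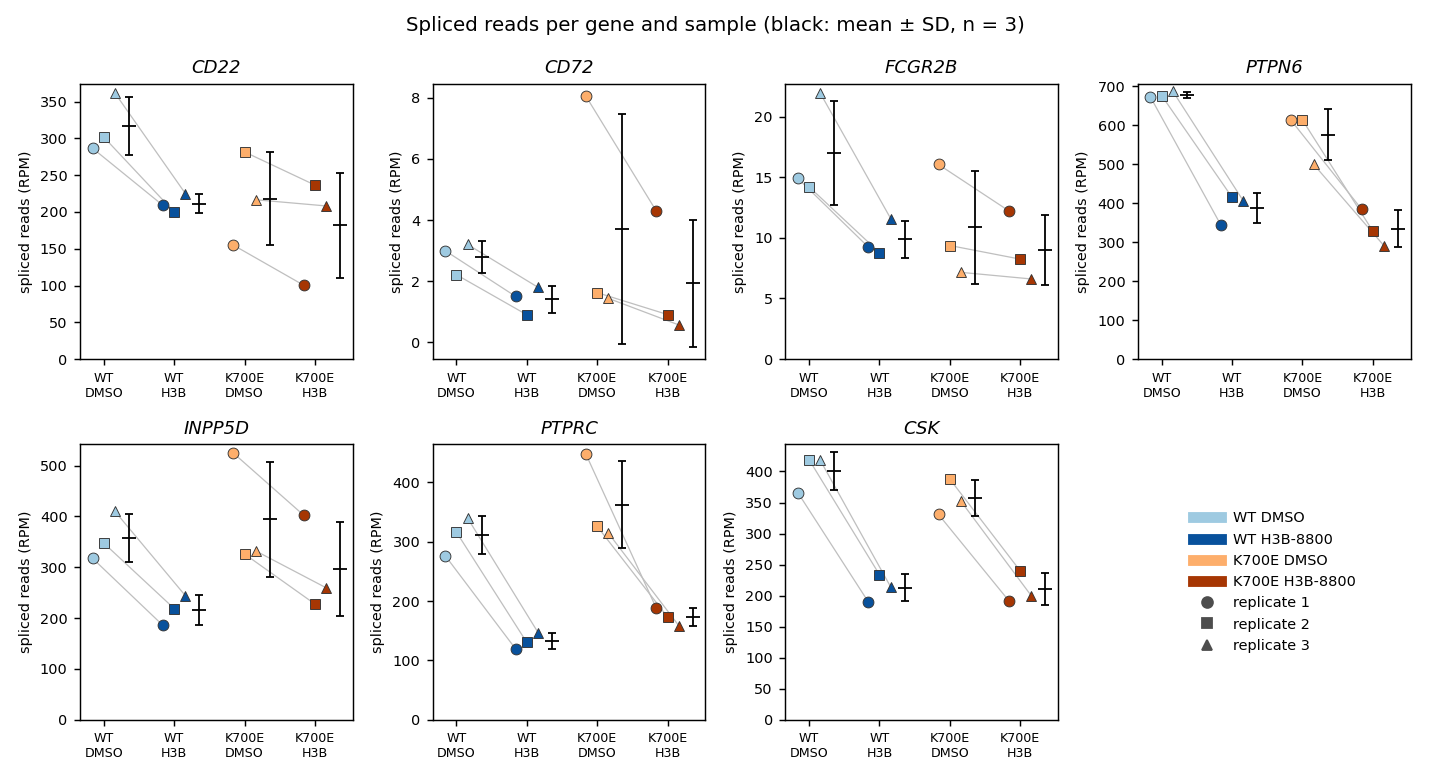
Spliced reads in RPM (vertical) of the 7 genes in the 12 samples, with symbols for replicates, grey lines joining the same clone or culture in DMSO and H3B-8800, and black marks for mean ± SD (n = 3). On this scale all 42 grey lines fall from DMSO to H3B-8800 (with median-of-ratios size factors the mean change of FCGR2B in K700E is 0.03), and K700E replicate 1 (circles) stands apart for CD22, CD72 and INPP5D.

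In all, limma called 4 of the 7 genes lower in WT and 3 in K700E, against 40.8% and 35.8% of 10182 genes tested, with 0 higher (18.5% and 16.2% of all genes were). With the clone or culture as a block, all 7 were lower in both genotypes, against 54.5% and 51.5% of all genes: for CD22 -0.58 ± 0.08 (adjusted p = 4.83e-05) in WT and -0.31 ± 0.08 (adjusted p = 0.00503) in K700E, for FCGR2B -0.77 ± 0.09 (adjusted p = 7.78e-06) and -0.23 ± 0.09 (adjusted p = 0.0345), and for CD72 -1.03 ± 0.17 (adjusted p = 0.000135) and -1.02 ± 0.17 (adjusted p = 0.000174). INPP5D in K700E reached an adjusted p of 3.09e-06 with the block. Without K700E replicate 1 in both treatments, CD72 (adjusted p = 0.0356) and INPP5D (adjusted p = 0.0289) joined the 3 called in K700E. INPP5D in WT was not called without WT DMSO replicate 3 (-0.63, adjusted p = 0.0658) or WT H3B-8800 replicate 1 (-0.62, adjusted p = 0.0671). A fit of the 6 WT samples alone called all 7 lower (49% of all genes), and the block with median-of-ratios size factors called 7 in WT (38.5%) and 5 in K700E (36.7%), where CD22 (-0.05) and FCGR2B (0.03) were not called.

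The size of these falls depends on the scale. The median of all genes was -0.28 in WT and -0.22 in K700E with the total as scale, and 0.03 and 0.04 with median-of-ratios size factors. On that second scale the split of all calls in WT went from 1888 higher and 4154 lower to 3176 (31.2%) and 2790 (27.4%), and PTPRC, CSK and PTPN6 remained called in both genotypes (-0.92, -0.6 and -0.5 in WT, -0.79, -0.51 and -0.53 in K700E). In K700E the split of all calls went from 1653 higher and 3641 lower to 2889 (28.4%) and 2500 (24.6%). INPP5D in WT was no longer called (-0.42 ± 0.2, adjusted p = 0.0978), and FCGR2B in K700E changed sign (0.03 ± 0.28, adjusted p = 0.945). The median of the 7 genes was -0.81 in WT and -0.77 in K700E with the total as scale.

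The unspliced share rose in all 7 genes in both genotypes. It is the percentage of intron junction reads of a gene that run from exon into intron rather than across the splice. The same held for most genes: limma called 81.2% of 10182 genes higher in WT and 81.8% in K700E, so 7 of 7 is close to what the whole table shows. CSK stood at the top of the 7, with a larger change of the log2 odds than 99.6% of all genes in WT and 99.7% in K700E.

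CSK had unspliced shares of 1.23%, 1.41% and 1.402% in WT DMSO and 26.2%, 26.4% and 27.2% in WT H3B-8800, and of 1.24%, 1.05% and 1.4% and 23.7%, 21.8% and 23.8% in K700E. The change of the log2 odds was 4.73 ± 0.14 (adjusted p = 1.94e-11) in WT and 4.6 ± 0.14 (adjusted p = 2.39e-11) in K700E. In PTPN6 the share was 2.24% ± 0.395 with DMSO and 15.8% ± 0.823 with H3B-8800 in WT, and 2.197% ± 0.09 with DMSO and 16.6% ± 1.91 with H3B-8800 in K700E. PTPRC and INPP5D had low shares, with DMSO means of 0.365% to 0.701% and treated means of 3.10% to 3.79%, and changes of the log2 odds of 3.27 and 2.59 in WT. In K700E these were 2.8 and 2.38.

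The receptors started higher and rose less on the log2 odds scale. In percentage points FCGR2B rose more than PTPRC and INPP5D. FCGR2B went from 7.96% to 23.7% in WT, a log2 odds change of 1.85 ± 0.26 (adjusted p = 1.27e-05), and changed by 1.5 ± 0.26 (adjusted p = 0.000101) in K700E. CD22 went from 4.59% to 10.9% in WT, a change of 1.35 ± 0.22 (adjusted p = 4.25e-05), and changed by 1.14 ± 0.22 (adjusted p = 0.000211) in K700E. CD72 had 5.82%, 14.2% and 10.8% in WT DMSO and 19.8%, 34.8% and 15.3% in WT H3B-8800, and changed by 1.4 ± 0.44 (adjusted p = 0.00877) in WT and 1.18 ± 0.44 (adjusted p = 0.0224) in K700E. The CD72 call was lost when single samples were left out (adjusted p of 0.0529 without WT DMSO replicate 1 and 0.091 without K700E DMSO replicate 3), and without K700E replicate 1 in both treatments (adjusted p = 0.0651). The median log2 odds change of the 7 genes was 2.59 in WT and 2.38 in K700E, beside 1.67 and 1.61 over all genes.

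**Figure D5:**
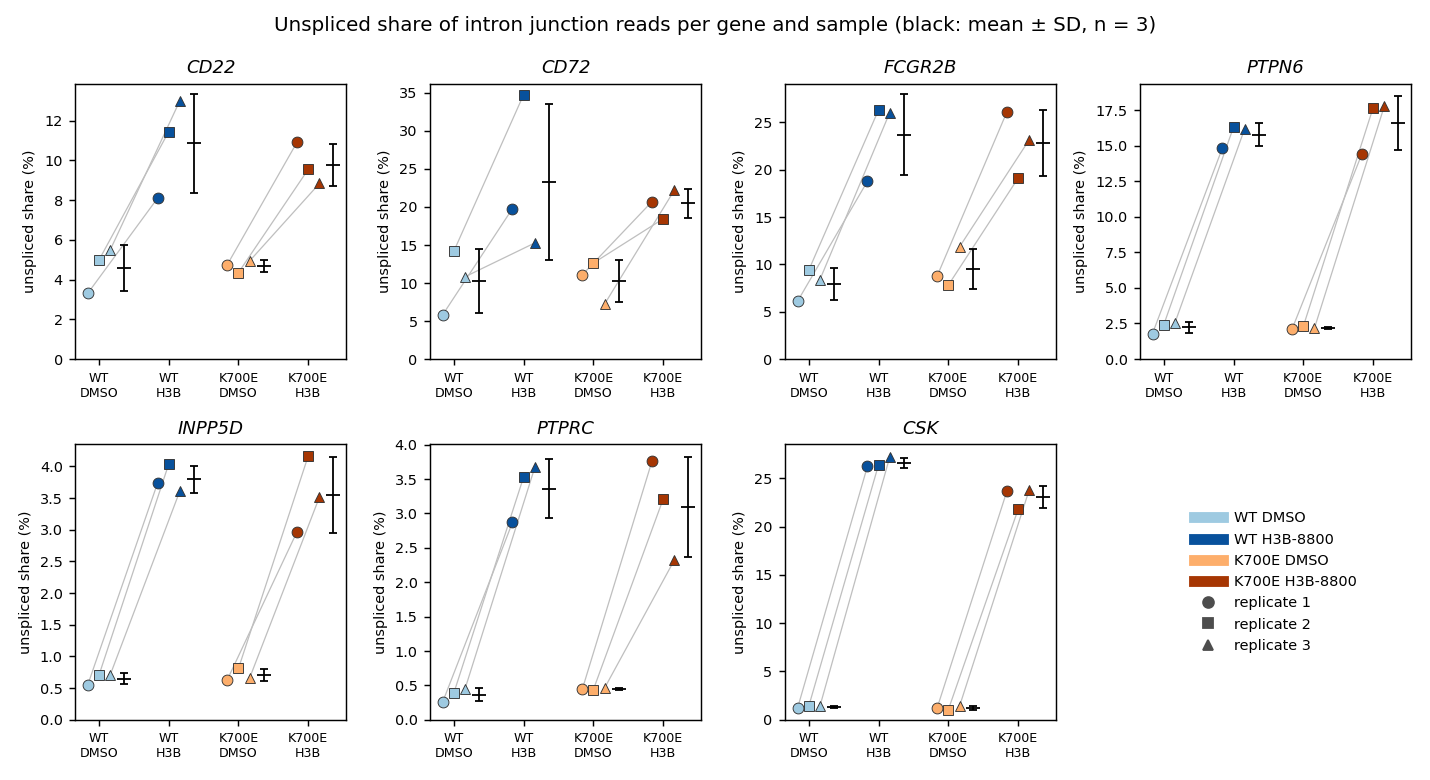
Unspliced share in percent (vertical) of the 7 genes in the 12 samples, with symbols for replicates, grey lines joining the same clone or culture, and black marks for mean ± SD (n = 3). Each panel has its own scale: CSK rises from under 1.5% to over 21%, and PTPRC from under 0.5% to at most 3.76%.

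K700E alone gave no call in these genes. This contrast uses the same DMSO samples as the H3B-8800 contrasts. In DMSO, limma called 0 of the 130 events different between K700E and WT (0.358% of all events were called), and 13 had an unadjusted p under 0.05. Over all genes 15574 of 120496 events had an unadjusted p that low. Mutant SF3B1 is known for using other 3′ splice sites, and 0 of the 23 tested alternative 3′ sites of the 7 genes was called, where the background was 2.56%. The count was also 0 with each of the alternatives tried, weights from read numbers and a test on percentage points among them.

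The alternative 3′ site with the smallest p was in CSK, and it was picked after its values were seen. It lies 21 nt upstream of exon 4, ahead of the coding part that starts in that exon, and gives the exon form at chromosome 15, 74798212 to 74798312. It was used at 1.15%, 1.17% and 0.92% in WT DMSO replicates 1, 2 and 3 and 2.66%, 1.7% and 2.77% in WT H3B-8800. The corresponding K700E levels were 3.87%, 4.03% and 3.09% in DMSO and 6.69%, 8.97% and 8.33% in H3B-8800. Within each treatment the 3 clones lay above the 3 WT samples. The difference in DMSO, 2.58 points, had an adjusted p of 0.0082 but was under the 10 points of a call. H3B-8800 raised its use by 1.297 points in WT (adjusted p = 0.00556) and by 4.33 points in K700E (adjusted p = 0.00304). On the log2 odds scale of the limma test, the effect of H3B-8800 did not differ between the genotypes in a call (unadjusted p = 0.7884, adjusted p = 0.9805). PTPRC exon 6 (RC) was lower in K700E by 3.20 points, with all 3 clones below all 3 WT samples (adjusted p = 0.072).

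No gene of the 7 differed in spliced reads between the genotypes in DMSO, where 4.86% of all genes were called and 1 of the 7 had an unadjusted p under 0.05. That gene was FCGR2B, lower in K700E by a log2 change of -0.7 ± 0.31 (adjusted p = 0.207). Without K700E replicate 1 it was -1.03 ± 0.22 (adjusted p = 0.0296) and called, as were 6.45% of all genes. CD22 changed by -0.58 ± 0.29 (adjusted p = 0.268) and PTPN6 by -0.24 ± 0.12 (adjusted p = 0.239), both with no overlap between the 3 clones and the 3 WT samples. CD72 changed by -0.06 ± 0.76 (adjusted p = 0.977). Without K700E replicate 1 the change was -0.35 ± 0.13 (adjusted p = 0.144) for CD22 and -0.85 ± 0.34 (adjusted p = 0.168) for CD72, and INPP5D went from 0.11 to -0.11 and PTPRC from 0.21 to 0.05, with none of these called. Unspliced shares did not differ in a call either (0 of 7, 0 with an unadjusted p under 0.05, where 1.35% of all genes were called).

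Whether the effect of H3B-8800 differed between the genotypes was tested as an interaction. For events, limma called 0 of 130 (0.00747% of all), and 10 had an unadjusted p under 0.05, beside 8573 of 120496 events of all genes. For spliced reads it called 0 of 7 (0.0491% of all), with 0 at an unadjusted p under 0.05. With the clone as a block, FCGR2B (0.54 ± 0.13, adjusted p = 0.0331) and INPP5D (0.31 ± 0.06, adjusted p = 0.0154) fell less in K700E than in WT, against 6.05% of all genes called. With the block and median-of-ratios size factors both were called too (0.48 and 0.25, adjusted p = 0.0423 and 0.0342, against 5.23% of all genes). For unspliced shares it called 0 of 7 (0.0393% of all), with 0 at an unadjusted p under 0.05.

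A list of 50 other genes linked to inhibitory signalling of immune cells, not all of them particular to B cells, was counted (kinases, phosphatases, adaptors and receptors). So was a list of 26 genes of antigen receptor activation. Of 40 inhibitory genes tested in WT, 11 fell and 3 rose in spliced reads, and in K700E 8 fell and 2 rose, beside 40.8% of all genes lower and 18.5% higher in WT and 35.8% and 16.2% in K700E. The median log2 change was -0.35 in WT and -0.26 in K700E, beside -0.28 and -0.22 over all genes. Of 26 activating genes, 10 fell and 4 rose in WT, and 8 fell and 3 rose in K700E, with medians of -0.28 and -0.2. These values are on the scale of the library total, on which the median of all genes is itself below 0.

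Among inhibitory genes, DOK3, an adaptor that dampens receptor signalling, fell from 8.43 RPM ± 1.91 to 1.69 ± 0.317 in WT (log2 change -2.31, adjusted p = 0.000907). DGKA, a kinase that removes diacylglycerol, fell from 48.4 RPM ± 11.6 to 11.9 ± 1.68 in WT (-2.01, adjusted p = 0.000136) and changed by -1.51 in K700E (adjusted p = 0.00126). Both of the next 2 genes had few reads. SIGLEC6, a relative of CD22, changed by -2.26 in WT (adjusted p = 0.00576), from 1.92 RPM ± 0.694 to 0.422 ± 0.21. UBASH3A, a suppressor of receptor signalling, changed by -2.57 in K700E (adjusted p = 0.00722), from 2.05 RPM ± 1.03 to 0.454 ± 0.488. The inhibitory receptor BTLA rose from 40.3 RPM ± 4.43 to 81.4 ± 7.24 in WT (1.02, adjusted p = 0.00504), and GRB2, an adaptor used in both directions, by 0.42 in WT and 0.4 in K700E (adjusted p = 0.0017 and 0.00286). PTPN2, another tyrosine phosphatase, rose by 0.18 and 0.28 (adjusted p = 0.0396 and 0.00525).

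On the activating side, SYK, the kinase that the receptor recruits, changed by -1.44 in WT and -1.07 in K700E (adjusted p = 0.00374 and 0.0215). VAV1, an exchange factor, changed by -1.41 and -1.03 (adjusted p = 2.31e-06 and 3.23e-05), and CD79B, a subunit of the receptor, by -1.18 and -0.97 (adjusted p = 0.000283 and 0.00146). GAB1, an adaptor, PIK3R1, a subunit of phosphoinositide 3-kinase, and MALT1, a protease, rose by 1.2, 0.79 and 0.57 in WT and by 0.93, 0.62 and 0.6 in K700E. In unspliced share, 38 of 40 inhibitory genes rose in WT and 37 in K700E, and 24 of 26 activating genes in each, beside 81.2% and 81.8% of all genes. LILRB1, an inhibitory receptor, rose by 4.73 log2 odds in WT, the value of CSK, with shares of 1.18% ± 0.212 with DMSO and 25.6% ± 2.297 with H3B-8800. Its K700E shares were 1.29% ± 0.233 and 23.9% ± 1.73.

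Of 446 tested events in 34 inhibitory genes, 165 were called in WT and 160 in K700E, and of 430 events in 26 activating genes 122 and 113. The 7 genes had 45 and 44 of 130, and of all events 31.4% were called in WT and 30.7% in K700E.

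The genes whose log2 spliced reads followed each member most closely over the 12 samples were FUCA2 (Pearson r = 0.979) and RTN4 (0.967) for CD22, LTF (0.981) and RARG (0.959) for CD72, ATP8A1 (0.95) and MLC1 (0.934) for FCGR2B, KIF2A (0.988) and TRPC1 (0.985) for PTPN6, UTY (0.988) and STAT2 (0.981) for INPP5D, U2AF1L4 (0.994) and UBE3B (0.993) for PTPRC, and ELP5 (0.992) and NSUN2 (0.989) for CSK. These values share the treatment and the clones, and they are the highest among the other tested genes, so they are a description.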

How the data were processed

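RNA of 12 MEC1 samples was sequenced after poly(A) selection with a stranded kit. The submitters' processing notes name cutadapt 2.4 and hg38; of an aligner or event caller the sources used here give no name. The authors deposited 1 table with each event's level as a percentage and, in text cells, the read numbers behind it. Recomputed from these reads, levels differed by no more than 1 point in all 4598029 values with at least 10 reads. The 36 columns of single sequencing runs were not used.

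Events were tested with limma 3.58.1 (R 4.3.3, mean trend) on the log2 odds of corrected reads, with 0.5 reads added. Spliced reads (log2 RPM) and unspliced shares (log2 odds) were summed per gene over annotated introns and tested in the same way for 10182 genes with a mean of 50 or more reads. All 12 samples entered as 4 groups, with Benjamini-Hochberg adjustment over every event or gene, and genes were called at an adjusted p under 0.05. Errors of fold changes are standard errors. Errors of levels are SDs with n = 3.

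The same clone or culture gave the DMSO and the H3B-8800 sample of a number, and such pairs deviated together in spliced reads (r of 0.658 to 0.925) and little in events (0.015 to 0.066). In simulated data, 65% of 200 events changed by 30 points (20000 events) and 99.5% of 200 genes changed 2-fold (10182 genes) were recovered, for H3B-8800 in WT. False calls were 1 for events and 10 for genes. The simulated samples held no differences between clones, so these shares do not carry over to genes whose clones differ widely, such as CD72. A far smaller part of the features was changed than in the data, where 31.4% of events were called in WT. The shares therefore do not give the recovery of the tests above. Intervals cover counting error only.

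Up to 5 called events per gene and H3B-8800 contrast with the largest differences and no overlap were named, with PTPRC exons 4 to 6, CD22 exon 2 and FCGR2B exon 6 in any case. Other events were named as neighbours, or where a call lay near the threshold. The members, gene lists and tests were chosen with earlier results of these data known. A gene of the marker and activating lists is not reported here. Sequences and annotation are from GENCODE 29 transcripts (GRCh38). Alternatives were other read minimums, pseudocounts, scalings and filters, blocks, left-out samples and a fit of the 6 samples of a contrast.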

Additional observations from a re-analysis of the deposited data

Results flagged for a closer look

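With clones as blocks, the effect of H3B-8800 on log2 spliced reads was less negative in K700E than in WT by 0.54 for FCGR2B (limma adjusted p = 0.0331) and by 0.31 for INPP5D (adjusted p = 0.0154). Without the block neither difference was called.

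Introns with unbalanced reads at their ends were left out of the tests, and 4 of them differed between H3B-8800 and DMSO by more than 10 points. PTPN6 intron 2 (chromosome 12, 6951732 to 6951982) was retained more by 58.23 points in WT and 55.2 in K700E. An intron of another PTPN6 transcript that reaches upstream of the reference start (6946740 to 6951608) was higher by 32.74 points in WT and 37.58 in K700E. CSK intron 6 (chromosome 15, 74798939 to 74799271) was higher by 27.96 points in WT and 23.02 in K700E. FCGR2B intron 5 (chromosome 1, 161674074 to 161675256) was higher by 11.57 points in WT. Unbalanced ends mean that reads at one end of the intron outnumber those at the other, so these levels are less certain than those tested.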

How the results depend on the processing

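Counts of called events of the 7 genes stayed between 43 and 49 in WT and between 42 and 48 in K700E under every alternative run, and at 0 for the genotype and for the difference between genotypes. Alternatives with another read minimum or filter tested other sets of events than the 130. Leaving out single samples gave 43 to 48 events in WT and 42 to 48 in K700E, 3 to 4 genes with lower spliced reads in WT and 3 to 5 in K700E, and 6 to 7 genes with a higher unspliced share in both. No named event or gene changed direction past the threshold. In spliced reads, the clone as a replicate block called 7 genes in WT, 7 in K700E and 2 for the difference between genotypes. The 6 WT samples alone gave 7 genes in WT. The block with median-of-ratios size factors gave 7 in WT, 5 in K700E and 2 for the difference. Without K700E replicate 1 in both treatments, which was chosen after seeing the data, 5 genes were called in K700E and 1 for the genotype. With the block, events called were 46 in WT and 44 in K700E. Depth limits CD72 most, with a median of 29 reads per event, and events called in 1 genotype lay near the 10-point threshold, so a call in 1 genotype alone is no difference between them. Effects of K700E are also differences between clones, and the 2 cannot be told apart. A block by replicate number across genotypes pairs no shared material.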
